A study of Mus musculus with 33 samples.

Results

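Genes that the tumour suppressor p53 switches on, members of the BCL2 family and the caspases with their activator Apaf1 were followed in cultured mouse enteric neural crest cells (ENCCs) with and without GDNF, and in whole embryonic gut. They were taken from a list of 38 gene symbols, and a gene entered where at least 1 probe set of the array named that symbol alone. This held for 36 of the 38 genes, with 83 probe sets, out of 18193 genes with 34945 probe sets in the whole series. They comprised 23 p53 targets, 10 of 11 listed BCL2 family genes, and Apaf1, Casp8 and Casp9. Trp53, the p53 gene itself, and Bax were not analysed here.

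GDNF-treated ENCCs had been kept in medium with 50 ng/ml GDNF, a secreted factor whose signal enters the cell through RET, a receptor tyrosine kinase. Untreated ENCCs came from the other well of the same gut, and cells of 9 guts at embryonic day 14.5 were divided in this way. Both wells held FGF and EGF, which are growth factors in their own right, on fibronectin. The donors were C57BL/6 mice that carried Wnt1-Cre and a LoxP/R26-YFP allele, so that YFP marked cells of the Wnt1-Cre lineage, which were sorted. Whole gut, from duodenum to anus, came from 8 wild-type C57BL/6 embryos of the same age and had been neither cultured nor sorted. The sources used here give neither the time in culture nor whether guts shared a litter, and p-values measure the spread between these guts. RNA was read on 33 Affymetrix arrays, 13 of treated ENCCs, 12 of untreated ENCCs and 8 of whole gut, in 2 batches of 17 and 16 arrays. Whole guts were in batch 2 only, and 7 ENCC RNAs were read in both batches.

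In a stressed cell, p53 is released from its ubiquitin ligase Mdm2 and binds DNA at a pair of adjacent half-sites. It then raises genes that halt the cell cycle, restrain growth, repair DNA or prepare the cell for death. BCL2 family proteins decide at the mitochondrion: BH3-only proteins promote the pores that Bax and Bak1 form, and survival proteins such as Bcl2 hold them back. Cytochrome c released through these pores assembles with Apaf1 and activates Casp9, whereas Casp8 is activated by death receptors such as Fas at the cell surface. In mouse embryos, GDNF and RET keep enteric neural crest cells alive and dividing, and excess p53 activity is known to cost the embryo neural crest cells.

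In 5 genes a promoter window held, close to a start of the gene, a sequence of the kind p53 is known to bind. The promoters of 3 of them are printed here, and the sites of Aen and Sesn1 follow below. Cdkn1a has 2 such windows and Bbc3 3 in the table used, and their other windows held no such site. The capitals mark a 20-base p53 site, made of 2 half-sites of 10 bases with at most 1 base between them. Up to 3 mismatches to the p53 half-site consensus were allowed in all, with the core CNNG kept in both. The consensus reads the same on both strands, so both strands were covered, and sites that overlapped were counted once per window. The lines give the 250 bases before 1 RefSeq start of each gene, on the strand of the gene, in GRCm38.p6. Cdkn1a lies at chr17:29090729-29090978 (plus strand), Ccng1 at chr11:40755287-40755536 (minus strand) and Bbc3 at chr7:16309333-16309582 (plus strand).
Cdkn1a: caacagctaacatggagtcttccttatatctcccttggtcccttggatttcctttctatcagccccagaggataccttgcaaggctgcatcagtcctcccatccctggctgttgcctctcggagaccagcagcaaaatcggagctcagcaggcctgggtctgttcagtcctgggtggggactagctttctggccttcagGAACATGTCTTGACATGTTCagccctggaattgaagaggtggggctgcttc
Ccng1: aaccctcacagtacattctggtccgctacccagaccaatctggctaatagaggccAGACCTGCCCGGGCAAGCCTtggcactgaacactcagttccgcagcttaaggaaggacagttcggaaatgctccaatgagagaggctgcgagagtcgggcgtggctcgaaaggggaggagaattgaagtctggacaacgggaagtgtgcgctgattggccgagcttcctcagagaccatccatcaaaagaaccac
Bbc3: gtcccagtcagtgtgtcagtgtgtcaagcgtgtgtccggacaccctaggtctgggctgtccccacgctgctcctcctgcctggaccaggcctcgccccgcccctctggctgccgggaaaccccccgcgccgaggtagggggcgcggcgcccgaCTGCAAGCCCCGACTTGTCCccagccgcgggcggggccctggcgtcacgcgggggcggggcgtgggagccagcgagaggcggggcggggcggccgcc
The site of Cdkn1a differed from the consensus at 1 base and began 51 bases upstream of the start. That of Ccng1 also had 1 mismatch and began 195 bases upstream, and that of Bbc3 had 3 mismatches and began 97 bases upstream. The other 2 sites, of Aen at chr7:78895937-78895956 and of Sesn1 at chr10:41887266-41887285, each had 3 mismatches, and are set out here for comparison.
Cdkn1a site: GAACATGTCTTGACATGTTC
Ccng1 site: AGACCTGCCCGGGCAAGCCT
Bbc3 site: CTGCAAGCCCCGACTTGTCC
Aen site: GGGCTTGTCCGGGCAAGGAG
Sesn1 site: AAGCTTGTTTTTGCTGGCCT
Promoter windows of 300 bases, 250 before and 50 after the start, were given for 27 of the measured genes. Such a site was found in 6 of their 37 windows, which belong to 5 genes, and in 2.82% of all 32851 mouse windows. An exact half-site was found in 9 of their 37 windows, which belong to 8 genes, and in 8.36% of all windows. A match describes the letters in these windows only and is no measurement of binding. Of the 5 genes with a site, Cdkn1a, Ccng1, Bbc3 and Aen were lower in GDNF-treated ENCCs, and Sesn1 did not pass the test. Lower were also 21 of the 36 measured genes as a whole, and 13.2% of all genes in the series. Genes whose windows held no such site went both ways: Mdm2, Btg2 and Casp8 were lower, and Plk3 was higher. A tie between site and difference was not tested.

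The deposited values are scores of rank within an array, so each array has a median of 0. They carry no fold changes, and scores of different genes are not levels that can be compared. Among ENCC arrays a score tells whether a gene stood high or low relative to its own spread. The correlation between batches over probe sets was 0.117 to 0.325 for the 7 RNAs read in both. For single probe sets of the listed genes, the correlation over these 7 RNAs had a median of 0.57, against 0.37 for all probe sets, and lay below 0 for 17 of the 83. Markers were set against the labels: the ENCC progenitor list was higher than whole gut in 4 of 6 genes in untreated ENCCs and in 5 of 6 in treated ENCCs. All 9 epithelial and all 7 endothelial markers were lower in ENCCs of both kinds than in whole gut. Other lists were less clear. Gut mesenchyme markers were lower in 4 of 11 genes in untreated ENCCs and in 9 of 11 in treated ENCCs. Smooth muscle markers were lower in 4 and 5 of 7, macrophage markers in 5 and 4 of 7, and erythroid markers in 2 of 4 in both. The macrophage marker Adgre1 was higher than whole gut in untreated ENCCs, by 1.96. Scores have no true zero, so whether a marker is absent cannot be read from them.

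A pair of samples stood apart. In gut 1 the median difference of the p53 targets between treated and untreated well was -0.09, whereas in the other 8 guts it was -1.51 to -0.84. The batch 2 array of the untreated well of gut 3 was the lowest of the 4 untreated arrays of that batch for 19 of the 36 genes. Its p53 targets had a median of 0.35 there and of 1.44 for the same RNA in batch 1. Zmat3 was at -1.60 on this array and at 2.11 in batch 1. Counts without each of these samples stand beside the results below.

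The first comparison asked what GDNF did to these genes in ENCCs. Most p53 targets were lower in GDNF-treated wells, together with 3 of the BH3-only genes, the survival gene Mcl1, and Casp8. The opposite direction was taken by the kinase gene Plk3, the BH3-only genes Bik and Bad and the survival gene Bcl2. For each gut the untreated score was subtracted from the treated score, and limma was fitted to the 9 differences of all 18193 genes with Benjamini-Hochberg adjustment and a threshold of 0.05. Of the 36 genes, 21 were lower with GDNF, where 13.2% of all genes were, and 4 were higher, where 18.3% of all genes were. The remaining 11 did not pass. The p53 targets counted 15 lower, 1 higher and 7 that did not pass, with a median difference of -1.04, against a median of 0.01 over all genes. The BCL2 family counted 4 lower, 3 higher and 3 that did not pass, with a median of -0.11, and Apaf1 and Casp8 were lower. In RNA of whole wells, fewer cells of a type and less RNA per cell cannot be told apart.

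**Figure D1:**
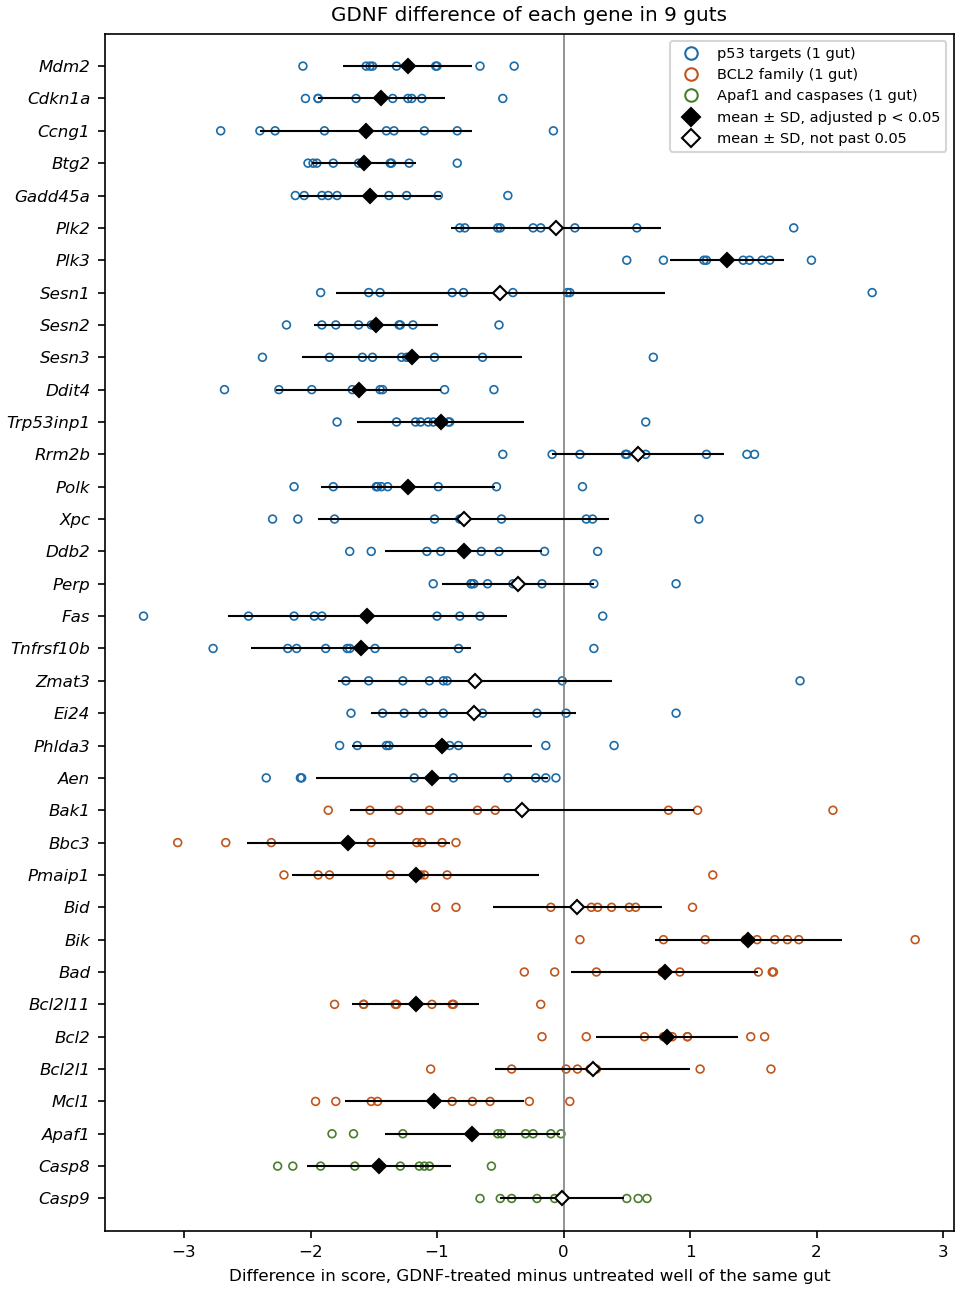
Difference in score between the GDNF-treated and the untreated well of the same gut (x axis, score units within an array) for the 36 measured genes (rows). Open circles are the 9 guts, diamonds with bars are the mean ± SD, and a filled diamond marks an adjusted p under 0.05. Filled diamonds left of 0 number 21, and those right of 0 are Plk3, Bik, Bad and Bcl2.

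Without gut 1, 24 of the 36 genes were lower and 4 higher, since Sesn1, Zmat3 and Ei24 then passed as well. Without the batch 2 array of untreated gut 3, 22 were lower and 4 higher. Batch 1 alone, with 8 guts, gave 22 lower and 5 higher. Batch 2 alone, with 4 guts, gave 0 calls by limma in either direction. There 16 genes were lower and 2 higher at an unadjusted p under 0.05. The median difference of the p53 targets was -1.13, and 27 of the 36 genes lay below 0. Shares over all genes were not counted for any of these fits, so their counts have no background to be set against.

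Other gene groups moved in the same wells. Neuron markers were higher with GDNF in 9 of 12 genes, with a mean score over the list of -0.14 to 0.75 in treated RNAs and -1.58 to -0.30 in untreated RNAs. Gut mesenchyme markers were lower in 6 of 11, with list means of -1.20 to 0.48 in treated RNAs and -0.49 to 1.09 in untreated RNAs. Ribosomal protein genes were lower in 7 of 8, with list means of -0.96 to 0.31 in treated RNAs and 0.48 to 1.19 in untreated RNAs. The 6 ENCC progenitor markers had a median difference of -0.03. Over the 18 hybridisation control probe sets, which report the labelled RNA spiked into each array, treated wells differed from untreated wells by -0.72 ± 0.99 (SD, n = 9 guts). With this difference as a covariate, centred on its mean, limma again gave 21 genes lower and 4 higher. Centring leaves the mean difference of each gene as it was. This fit therefore does not remove the mean shift of the controls, and cannot show whether that shift has a part in the result. The part of the marker lists in the result was not tested.

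**Figure D2:**
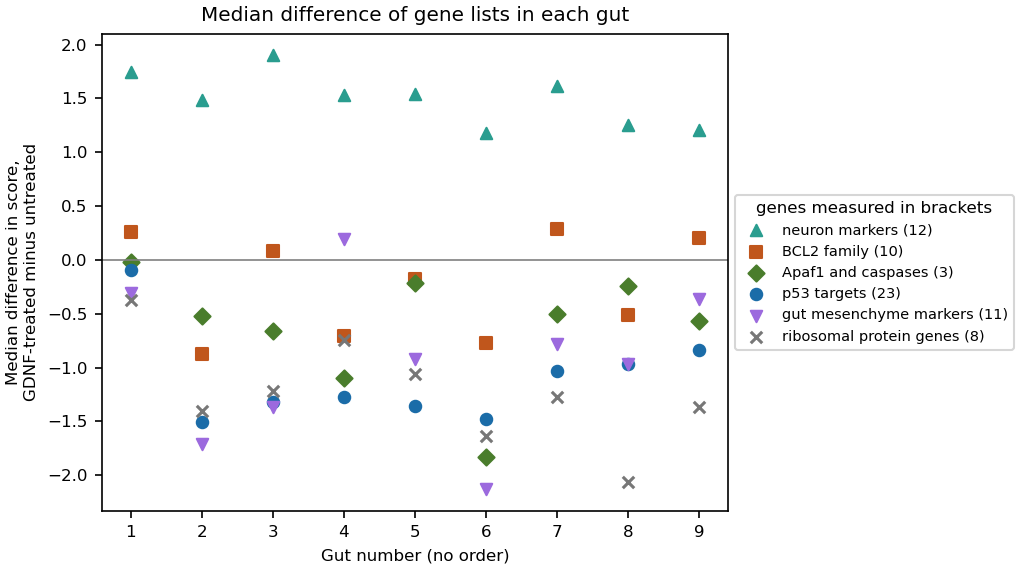
Median difference in score between the GDNF-treated and the untreated well (y axis, score units) in each of 9 guts (x axis, gut numbers without order) for 6 gene lists, with the number of measured genes in brackets. The p53 targets lay between -1.51 and -0.84 in 8 guts and at -0.09 in gut 1, the neuron markers lay above 0 in all 9 guts, and the BCL2 family lay on both sides of 0.

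Among the targets that feed back on p53 and halt the cell cycle, 5 of 7 were lower with GDNF. Cdkn1a encodes p21, the inhibitor of cyclin-dependent kinases whose promoter site is printed above. Its score was -1.26 at the lowest, -0.65 at the median and 0.17 at the highest over the 9 treated RNAs, and 0.27, 0.98 and 1.20 over the 9 untreated RNAs. With the arrays of an RNA averaged, the groups did not overlap: every treated RNA lay below every untreated RNA. On single arrays of batch 2 they did overlap, with untreated gut 3 at -0.76 and treated gut 3 at -0.52. The difference was -1.44 ± 0.50 (SD, n = 9) and below 0 in 9 of 9 guts (limma adjusted p = 2.7e-04). The 2 probe sets of Cdkn1a differed by -1.66 and -1.21, with correlations between batches of 0.81 and -0.23. In batch 2 the second had a mean of 0.25 in treated and 0.24 in untreated ENCCs. Mdm2, the ligase that holds p53 down and is itself its target, was at -1.08, -0.45 and -0.03 in treated RNAs, and at 0.35, 0.56 and 1.09 in untreated RNAs, again without overlap. Its difference was -1.23 ± 0.51 (limma adjusted p = 8.3e-04). The 3 probe sets of Mdm2 differed by -1.53, -1.48 and -0.67, and the last had a correlation of -0.39 between batches. Gadd45a, a growth arrest gene of the DNA damage response, was the other gene with all treated RNAs, at -1.09 to -0.47, below all untreated RNAs, at -0.04 to 1.59. This held for 3 of the 36 genes and for 0.857% of all genes. Its difference was -1.53 ± 0.56 (limma adjusted p = 2.3e-04). On single arrays of batch 2, Gadd45a in untreated gut 3, at -0.80, lay below treated gut 3, at -0.29.

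Btg2, which restrains proliferation, was at -1.47, -0.74 and -0.49 (lowest, median and highest) in treated RNAs and at -0.63, 0.88 and 1.33 in untreated RNAs. The groups met in the lowest untreated RNA. The difference of Btg2 was -1.58 ± 0.41, lower in 9 of 9 guts (limma adjusted p = 1.0e-04). Ccng1, which encodes cyclin G1 and whose promoter site is printed above, differed by -1.56 ± 0.84 (limma adjusted p = 7.8e-04), with its smallest difference, -0.08, in gut 1. Plk3, a polo-like kinase of the stress response, went the other way. Its score was 0.14, 0.49 and 1.56 in treated RNAs and -1.07, -0.81 and -0.36 in untreated RNAs, so that all treated RNAs lay above all untreated RNAs, as in 4.69% of all genes. The difference was 1.29 ± 0.45 and above 0 in 9 of 9 guts (limma adjusted p = 4.4e-04). These values average the arrays of both batches. On single arrays of batch 2, Plk3 in gut 8 was at -0.36 treated and 0.08 untreated, the opposite direction. The related kinase gene Plk2 differed by -0.06 ± 0.83 (limma adjusted p = 0.895), and its 2 probe sets, at -0.49 and 0.37, disagreed in sign.

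**Figure D3:**
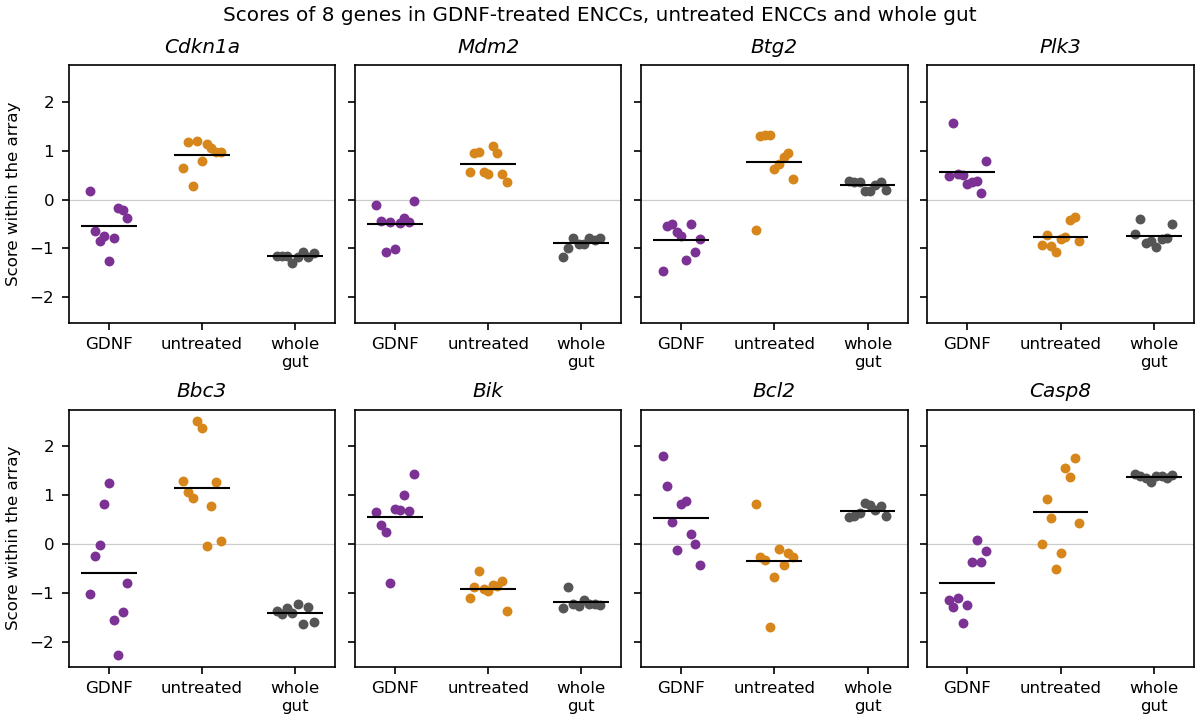
Score within the array (y axis) of 8 genes in 9 GDNF-treated ENCC RNAs, 9 untreated ENCC RNAs and 8 whole guts. Each point is 1 RNA, as the mean of its arrays where it was read in both batches, and lines are group means. Treated points lie below all untreated points for Cdkn1a and Mdm2 and above them for Plk3. Whole guts lie below all untreated points for Cdkn1a, at -1.30 to -1.08.

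Of the targets that answer metabolic stress, 4 of 5 were lower with GDNF. Ddit4, which encodes the mTORC1 inhibitor REDD1, was at -1.60, -0.83 and -0.28 in treated RNAs and at -1.05, 0.96 and 1.44 in untreated RNAs. The groups overlapped through the lowest untreated RNA. Its difference of -1.62 ± 0.65 was below 0 in 9 of 9 guts (limma adjusted p = 2.4e-04). The sestrins, which also restrain mTORC1, were not alike in their calls. Sesn2 was at -1.10, -0.53 and 0.37 in treated RNAs and at 0.20, 1.00 and 1.91 in untreated RNAs, with a difference of -1.48 ± 0.49 in the same direction in 9 of 9 guts (limma adjusted p = 2.1e-04). Sesn3 differed by -1.20 ± 0.87 and was lower in 8 of 9 guts (limma adjusted p = 0.00504). Sesn1, one of the genes with a promoter site, differed by -0.50 ± 1.30 (limma adjusted p = 0.35), with 2.44 in gut 1 and -1.92 to 0.05 in the others. Without gut 1 its difference was -0.86 (limma adjusted p = 0.025), and it did not pass when any other gut was left out. The difference between the sestrins was not tested. Trp53inp1, a nuclear protein that promotes autophagy and cell death, fell by 0.97 ± 0.66, with gut 1 at 0.65 and the other 8 guts at or below -0.90 (limma adjusted p = 0.00766).

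DNA repair targets were divided, with 2 of 4 lower. Polk, a polymerase that copies damaged DNA, differed by -1.23 ± 0.69 and was lower in 8 of 9 guts (limma adjusted p = 0.00181). Ddb2, which recognises ultraviolet damage, differed by -0.79 ± 0.62 (limma adjusted p = 0.02), and without gut 8 the adjusted p was 0.0552. Its probe sets had correlations of 0.27 and 0.2 between batches. The call of Ddb2 was also lost in batch 1 alone (limma adjusted p = 0.0693), without pairing by gut (limma adjusted p = 0.0646) and with the most reproducible probe set, the one with the highest correlation between batches, at -0.58 (limma adjusted p = 0.084). Xpc, another recognition protein of excision repair, was at -0.79 ± 1.15 and did not pass (limma adjusted p = 0.0956). It passed in only 1 of the 9 fits that left out a gut, without gut 2, at -1.02 (limma adjusted p = 0.0297). In the others the limma adjusted p reached 0.207. Rrm2b, a ribonucleotide reductase subunit that p53 induces, was at 0.59 ± 0.68 and did not pass (limma adjusted p = 0.0856). Of the 9 fits that left out a gut, it too passed only without gut 2, at 0.72 (limma adjusted p = 0.0414). In the others the limma adjusted p reached 0.198.

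Targets that act in cell death were lower in 4 of 7 genes, and all 7 mean differences were below 0. Fas, a death receptor, was at -1.27, -0.65 and 1.01 in treated RNAs and at -0.40, 1.10 and 2.68 in untreated RNAs. The groups overlapped, and the difference of -1.55 ± 1.10 was below 0 in 8 of 9 guts (limma adjusted p = 0.00264). The probe set of Fas had a correlation of only 0.13 between batches. Tnfrsf10b, the receptor of the death ligand TRAIL, was at -1.18, -0.83 and -0.25 in treated RNAs and at -0.83, 1.02 and 1.61 in untreated RNAs. Only gut 1, at 0.24, was not below 0, and the difference was -1.60 ± 0.87 (limma adjusted p = 7.5e-04). Aen, a nuclease that enhances apoptosis, differed by -1.04 ± 0.92 and was lower in 9 of 9 guts (limma adjusted p = 0.0137). Phlda3, which represses the survival kinase AKT, differed by -0.96 ± 0.71 and was lower in 8 of 9 guts (limma adjusted p = 0.00978), with -0.63 in batch 2 alone. Perp, a membrane protein of desmosomes, Zmat3, an RNA-binding protein, and Ei24, a protein of the endoplasmic reticulum, did not pass, at -0.36, -0.70 and -0.71. Without gut 1, Zmat3 was at -1.02 (limma adjusted p = 0.00458) and Ei24 at -0.91 (limma adjusted p = 0.0113). Zmat3 and Ei24 did not pass when any other gut was left out. Each has 1 probe set, whose correlation between batches was -0.71 for Zmat3 and -0.74 for Ei24. In batch 2 alone the differences of these 2 genes were 0.17 and 0.51.

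BH3-only genes of the BCL2 family took both directions, with 3 lower, 2 higher and 1 that did not pass. Bbc3 encodes PUMA, a death activator that p53 induces, and its promoter is printed above. It was at -2.28, -0.80 and 1.25 in treated RNAs and at -0.04, 1.07 and 2.51 in untreated RNAs. The groups overlapped, yet in 9 of 9 guts the treated well was lower than its own untreated well. The difference was -1.70 ± 0.80 (limma adjusted p = 3.5e-04). The probe set of Bbc3 had a correlation of 0.32 between batches. Bcl2l11 encodes BIM, a death activator of cells deprived of growth factors. It was at -1.15, -0.46 and 0.04 in treated RNAs and at -0.76, 0.65 and 1.40 in untreated RNAs, and differed by -1.17 ± 0.50 with 9 of 9 guts lower (limma adjusted p = 0.00102). Pmaip1, which encodes NOXA, an antagonist of Mcl1, was lower in 8 of 9 guts at -1.17 ± 0.98 (limma adjusted p = 0.00951), with 1.18 in gut 1.

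Bik, a BH3-only protein of the endoplasmic reticulum, was at -0.80, 0.68 and 1.42 in treated RNAs and at -1.37, -0.89 and -0.56 in untreated RNAs. A single treated RNA, the lowest, lay within the range of the untreated RNAs. The difference of Bik was 1.46 ± 0.74 and above 0 in 9 of 9 guts (limma adjusted p = 7.7e-04). Bad, which survival kinases inactivate by phosphorylation, was higher at 0.80 ± 0.74 in 7 of 9 guts (limma adjusted p = 0.0272). This call was lost in 6 of the 9 fits that left out a gut, without gut 3, 4, 6, 7, 8 or 9, with adjusted p-values of 0.0502 to 0.0704. It was also lost without pairing by gut (limma adjusted p = 0.0906) and with the most reproducible probe set (limma adjusted p = 0.066). Bid, which Casp8 cleaves, was at 0.11 ± 0.67 (limma adjusted p = 0.766).

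Among the survival genes, Bcl2 and Mcl1 moved apart. Bcl2 was at -0.44, 0.45 and 1.79 in treated RNAs and at -1.71, -0.28 and 0.81 in untreated RNAs. These ranges overlapped widely, but the treated well was the higher in 8 of 9 guts, with a difference of 0.82 ± 0.56 (limma adjusted p = 0.0132). All 5 probe sets of Bcl2 lay above 0, at 0.41 to 1.30, and in batch 2 alone its difference was 0.29. Mcl1, a survival protein of rapid turnover, was at -1.22, -0.44 and 0.63 in treated RNAs and at -0.01, 0.54 and 1.18 in untreated RNAs. Its difference was -1.02 ± 0.71, lower in 8 of 9 guts (limma adjusted p = 0.00674), and its 6 probe sets were all below 0, at -1.77 to -0.53. For 4 of these 6 the correlation between batches was below 0, and in batch 2 alone the difference of Mcl1 was -0.26. Bcl2l1, which encodes BCL-XL, was at 0.23 ± 0.77 and Bak1, the pore former, at -0.33 ± 1.36, and neither passed (limma adjusted p = 0.557 and 0.571). The 2 probe sets of Bak1, at -0.81 and 0.15, disagreed in sign.

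Casp8, the initiator caspase of the death receptors, was at -1.62, -1.12 and 0.08 in treated RNAs and at -0.52, 0.53 and 1.76 in untreated RNAs. The ranges overlapped, and the difference of -1.46 ± 0.57 was below 0 in 9 of 9 guts (limma adjusted p = 3.3e-04). Its probe set had a correlation of 0.98 between batches. Apaf1, the scaffold on which Casp9 is activated, was at -0.69, -0.12 and 1.15 in treated RNAs and at -0.18, 0.68 and 1.55 in untreated RNAs. Apaf1 was lower in 9 of 9 guts at -0.72 ± 0.69, with differences of -1.83 to -0.02 (limma adjusted p = 0.0396). That call was lost without gut 2, 3, 4, 6 or 9, with adjusted p-values of 0.0551 to 0.103. It was lost as well without pairing by gut (limma adjusted p = 0.0801), with all ENCC arrays in 1 fit (limma adjusted p = 0.0787) and with the most reproducible probe set of Apaf1, at -0.41 (limma adjusted p = 0.407). In batch 2 alone the difference of Apaf1 was -0.23. Its probe sets had correlations of 0.17 and -0.43 between batches. Casp9 itself was at -0.01 ± 0.49 (limma adjusted p = 0.972).

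Over the 36 genes, 14 had the same sign in all 9 guts, 12 of them below 0, where 17.8% of all genes had 1 sign and 6.14% lay below 0 in all. Of the 24 genes with several probe sets, 18 had probe sets that all agreed in sign.

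Other genes of the pathway, from lists that hold none of the 36, were read in the same fit. There 13.2% of all genes were lower and 18.3% higher, the shares against which the counts of these lists stand. Of 11 regulators of p53, 1 passed. The p53 inhibitor Mdm4 was at -0.07 ± 0.34 (limma adjusted p = 0.821). Cdkn2a, which encodes the Mdm2 inhibitor ARF among its products, was lower at -1.20 ± 0.99 (limma adjusted p = 0.00834). Mdm4, Cdkn2a, Casp2, Casp6, Casp14 and Cflar are named here after their values were seen. Of 14 further p53 targets, 6 were lower and 3 higher. Rps27l, a ribosomal protein variant induced by p53, was at -1.60 ± 0.66 (limma adjusted p = 2.8e-04). Trp53i11 was at 1.55 ± 0.50 and Rprm, which encodes the cell cycle inhibitor reprimo, at 1.67 ± 0.71 (limma adjusted p = 1.6e-04 and 2.7e-04).

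Of 9 further BCL2 family genes, 1 was lower and 1 higher. Hrk, a BH3-only gene of neurons deprived of growth factor, was at -1.14 ± 0.37, and Bnip3, a mitochondrial protein induced by low oxygen, at 1.10 ± 0.97 (limma adjusted p = 7.1e-04 and 0.0125). Further caspases were lower in 4 of 6 genes and higher in 1, with Casp12 at -1.35 ± 0.90 and Casp4 at 1.15 ± 0.81 (limma adjusted p = 0.00277 and 0.00502). Casp2, Casp6 and Casp14 held their calls in only 3, 2 and 2 of the 9 fits that left out a gut. Partners of the apoptosome and inhibitors of caspases were higher in 3 of 8 genes. These 3 are mitochondrial proteins released in apoptosis: Cycs, cytochrome c, was at 0.93 ± 0.37, Diablo at 1.37 ± 0.43 and Htra2 at 0.95 ± 0.74 (limma adjusted p = 0.00287, 2.7e-04 and 0.0116). Of 6 genes of death receptors, their ligands and adaptors, 2 were lower. Tnfrsf1a was at -1.32 ± 1.17 and Cflar, an inhibitor of Casp8, at -0.69 ± 0.38 (limma adjusted p = 0.00963 and 0.0169). For Tnfrsf1a the lowest gut was at -4.31 and the median at -1.04.

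The second comparison set untreated ENCCs against whole gut, on the 4 untreated arrays and the 8 whole guts of batch 2. The untreated arrays also enter the first comparison, so the results of the 2 comparisons are not independent. Most p53 targets stood above whole gut in untreated ENCCs. The spread was wider among ENCCs than among whole guts, and on simulated data limma with a common spread made 787 false calls among 17993 unchanged genes, against 40 with array weights for each group. A gene is therefore called here only where it passed both fits. By this rule, chosen after the data were seen, 14 of the 36 genes were higher in untreated ENCCs, where 9.01% of all genes were, and 3 were lower, where 11.7% were. The fit with a common spread alone gave 19 higher and 6 lower, and called 42.6% of all genes. Scores did not overlap with those of whole gut for 18 of the 36 genes, and for 27.6% of all genes. All arrays of whole gut are tissue with many cell types, and culture, sorting, tissue and genotype cannot be told apart in this design.

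Among p53 targets, 13 of 23 were higher in untreated ENCCs than in whole gut and 1 was lower, with a median difference of 1.56, against -0.01 over all genes. Cdkn1a was at 1.18, -0.76, 1.18 and 1.15 in untreated ENCCs (guts 2, 3, 8 and 9), and at -1.30, -1.16 and -1.08 (lowest, median and highest) in whole gut. All ENCC arrays lay above all whole guts, with gut 3 well below the other 3. The difference was 1.85 (limma adjusted p = 0.00145 with array weights). Mdm2 was at 0.94, 0.33, 0.99 and 0.37 in untreated ENCCs and at -1.18, -0.86 and -0.78 in whole gut, a difference of 1.56 without overlap (limma adjusted p = 0.00712 with array weights), and of 2.37 with its most reproducible probe set. Ccng1, at 2.24, Phlda3, at 2.32, and Sesn2, at 2.21, had the widest differences of the p53 targets, and none of their scores overlapped with whole gut. Fas, Polk, Zmat3, Aen, Ddit4, Gadd45a, Trp53inp1 and Rrm2b were higher by 1.16 to 2.13. For Gadd45a the array of gut 3, at -0.80, fell within the range of whole gut, while the other 3 were at 1.22 to 1.82. Ddb2 was the target that was lower, with a difference of -0.83, at 0.72, 0.87, 0.35 and 0.46 in untreated ENCCs and at 1.35, 1.42 and 1.53 in whole gut (limma adjusted p = 0.0281 with array weights).

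**Figure D4:**
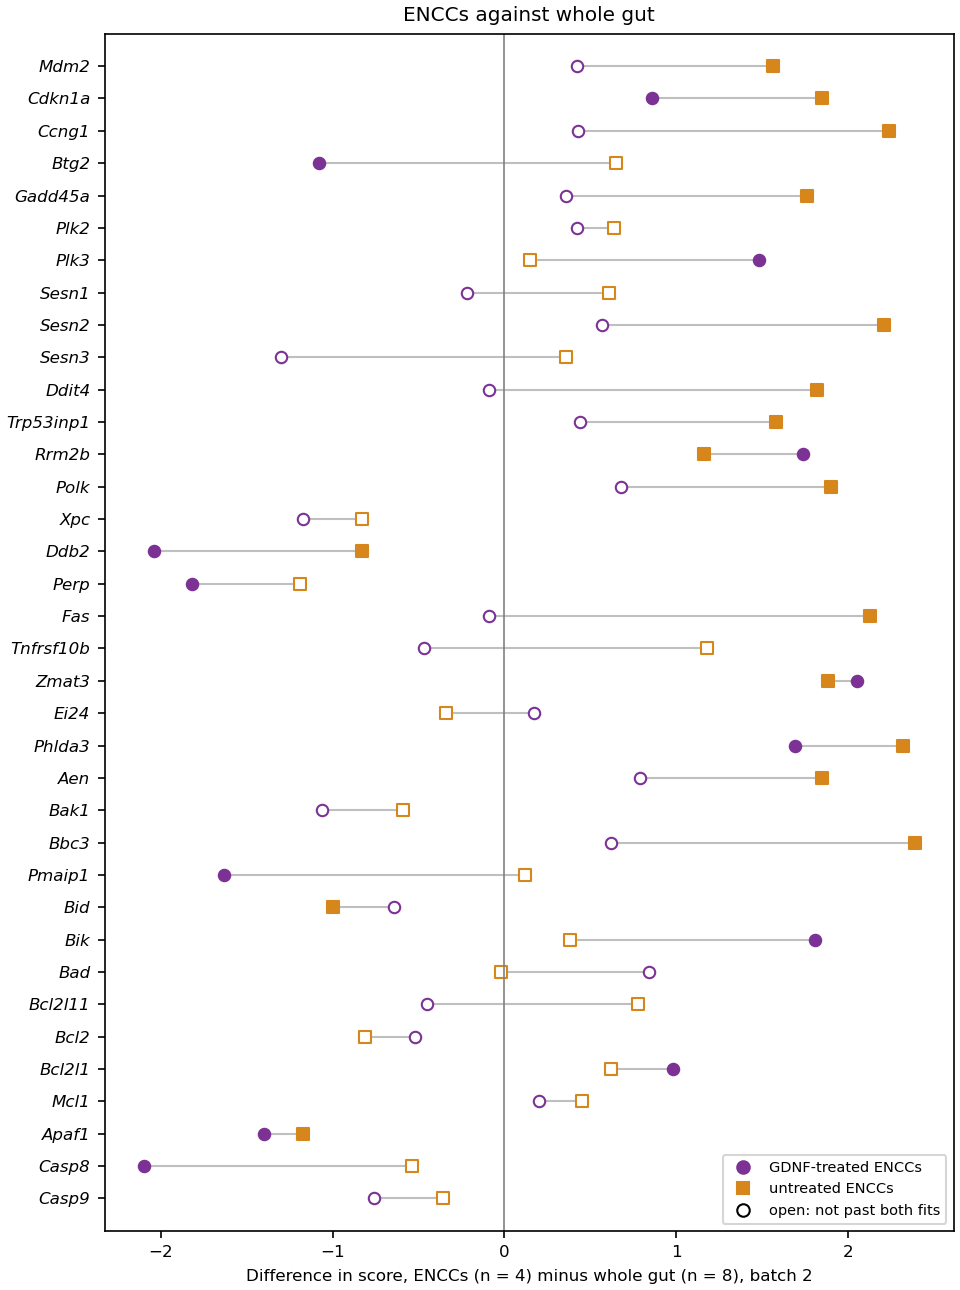
Difference in mean score between ENCCs (n = 4) and whole gut (n = 8) in batch 2 (x axis, score units) for the 36 genes (rows), as circles for GDNF-treated ENCCs and squares for untreated ENCCs. Filled symbols passed both fits. Both sets share the 8 whole guts, and most p53 targets have their square to the right of their circle.

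In the BCL2 family, Bbc3 was the gene that was higher and Bid the gene that was lower in untreated ENCCs, and 8 of 10 did not pass both fits. Bbc3 was at 1.07, 0.07, 2.26 and 0.50 in untreated ENCCs and at -1.65, -1.39 and -1.24 in whole gut, a difference of 2.39 without overlap (limma adjusted p = 0.00126 with array weights). Bid was at 0.96, 0.12, -1.32 and -0.11 in untreated ENCCs and at 0.83, 0.93 and 0.98 in whole gut. Its difference was -1.0 (limma adjusted p = 0.0437 with array weights), and the groups overlapped. Apaf1 was lower too, with a difference of -1.17 (limma adjusted p = 0.0442 with array weights), at 1.34, -1.01, -0.32 and 1.47 in untreated ENCCs and 1.43 to 1.64 in whole gut. Casp8, at -0.54, and Casp9, at -0.36, did not pass.

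These calls leaned on single arrays. Without the untreated array of gut 3, 15 genes were higher, Mcl1 in addition at 0.97, and 2 lower, without Apaf1. Without gut 2, 9 genes were higher, as Mdm2, Gadd45a, Ddit4, Trp53inp1 and Fas no longer passed. Without gut 8, 10 were higher and 0 lower by both fits, while 6 were lower in the fit with a common spread. Without gut 9, 11 were higher and 1 lower. The 9 genes that stayed higher in each of these fits were Cdkn1a, Ccng1, Sesn2, Rrm2b, Polk, Zmat3, Phlda3, Aen and Bbc3. For Rrm2b this rests on the mean of its probe sets: with the most reproducible one its difference was 0.31, against 1.16, and did not pass (limma adjusted p = 0.546).

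The third comparison set GDNF-treated ENCCs against the same 8 whole guts, so its values are given side by side with those of untreated ENCCs and are not independent of them. By both fits, 7 of the 36 genes were higher in treated ENCCs, where 16.0% of all genes were, and 6 were lower, where 15.9% were. With a common spread alone 12 were higher and 12 lower, and 51.0% of all genes were called. Scores did not overlap for 18 of the 36 genes, and for 34.9% of all genes. The p53 targets counted 5 higher and 3 lower of 23, with a median difference of 0.42.

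Cdkn1a, Rrm2b, Zmat3 and Phlda3 were higher than whole gut both in treated and in untreated ENCCs, in the case of Rrm2b by 1.74 in treated ENCCs, or 1.13 with its most reproducible probe set, and without a call in untreated ENCCs with that probe set. Cdkn1a was at -0.46, -0.52, -0.11 and -0.11 in treated ENCCs (guts 2, 3, 8 and 9), above whole gut at -1.30 to -1.08, and differed by 0.86 (limma adjusted p = 0.00679 with array weights). Phlda3 was at -0.72, -0.66, 0.25 and 1.07 in treated ENCCs and at -1.76 to -1.66 in whole gut, a difference of 1.69 (limma adjusted p = 3.4e-04 with array weights). Plk3 was higher in treated ENCCs by 1.48 (limma adjusted p = 0.0252 with array weights), at 1.24, 0.64, -0.36 and 1.45, against -0.98, -0.80 and -0.39 in whole gut. In untreated ENCCs its difference from whole gut was 0.15 and did not pass. Mdm2, Ccng1, Gadd45a, Sesn2, Ddit4, Trp53inp1, Polk, Fas and Aen, higher in untreated ENCCs, differed from whole gut by -0.09 to 0.79 in treated ENCCs and did not pass both fits.

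Btg2 was lower in treated ENCCs than in whole gut. Its scores were -0.33, -0.61, -1.45 and -0.76 in treated ENCCs and 0.17, 0.32 and 0.38 in whole gut, a difference of -1.08 without overlap (limma adjusted p = 0.00643 with array weights). In untreated ENCCs it was at 0.58 to 1.29, a difference of 0.65 that passed only with a common spread. Ddb2 and Perp were the other targets below whole gut, with differences of -2.04 and -1.82 (limma adjusted p = 9.0e-05 and 0.0189 with array weights). For Perp, guts 2 and 3 were at 1.16 and 0.68 and guts 8 and 9 at -1.58 and -1.20 in treated ENCCs, against 1.12 to 1.75 in whole gut. Perp is a gene of epithelia, and the epithelial marker list averaged -0.42 to 0.55 in treated ENCCs of batch 2, -0.85 to 0.59 in untreated ENCCs and 2.74 to 2.80 in whole gut. Its part in the result was not tested.

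Bik and Bcl2l1 were the BCL2 family genes higher in treated ENCCs, and Pmaip1 the one lower. Bik was at 0.23, -0.09, 0.49 and 1.81 in treated ENCCs and at -1.32, -1.23 and -0.88 in whole gut, and differed by 1.81 without overlap (limma adjusted p = 0.00211 with array weights). Bcl2l1 was at 0.25, -0.43, 0.37 and 0.57 in treated ENCCs and at -0.91 to -0.64 in whole gut, a difference of 0.98 (limma adjusted p = 0.0109 with array weights), and of 2.25 with its most reproducible probe set. Pmaip1, at 1.12, -0.20, -1.69 and -1.41 in treated ENCCs and 0.84 to 1.23 in whole gut, was lower with a difference of -1.63 and overlap (limma adjusted p = 0.00891 with array weights). Bbc3 differed by 0.62 and passed only with a common spread.

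Casp8 showed the widest gap of the 36 genes below whole gut in treated ENCCs. It was at -1.35, -1.05, -0.34 and -0.17 in treated ENCCs and at 1.26, 1.39 and 1.43 in whole gut, and differed by -2.10 (limma adjusted p = 1.9e-05 with array weights). Apaf1, at 0.82, -0.23, 0.23 and -0.27 in treated ENCCs and 1.43 to 1.64 in whole gut, was lower with a difference of -1.40 (limma adjusted p = 5.8e-04 with array weights). Casp9 differed by -0.76 and passed only with a common spread. Markers of endothelium and macrophages averaged 1.97 to 2.09 and 1.25 to 1.33 in whole gut, against -0.64 to 0.25 and -0.39 to 0.30 in treated ENCCs of batch 2, and their part was not tested.

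Leaving out single treated arrays changed these calls too. Plk3 no longer passed both fits without gut 2, 3 or 9, Bcl2l1 without gut 8 or 9, and Perp and Pmaip1 without gut 8 or 9. Cdkn1a, Rrm2b, Zmat3, Phlda3 and Bik stayed higher, and Btg2, Ddb2, Apaf1 and Casp8 lower, in each of these fits.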

How the data were processed

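Values were read from the series' deposited value table, and RMA is named, with no version, per the submitters' processing notes. The deposited values are scores, not log2 intensities: each array holds the normal quantiles of the ranks of its 45101 probe sets, and probe sets appear centred and scaled within a batch on the ENCC RNAs read in both batches. This was read from the values. Probe sets with 1 gene symbol in the platform annotation were used, without controls, and the score of a gene is the mean of its probe sets.

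Treated minus untreated differences were taken within a gut and batch and averaged over batches, gut 2 from batch 2 only. That wells pair by gut comes from the labels' treatment protocol, and deviations of paired wells correlated at 0.063 to 0.296 (7 of 9 over 0.1). Limma 3.58.1 with statmod 1.5.0 in R 4.3.3 gave p-values, adjusted by Benjamini-Hochberg over 18193 genes with a threshold of 0.05. Comparisons with whole gut used batch 2 arrays, with a common spread as planned and, after the data were seen, with arrayWeights by group as a second condition. On simulated data with 200 changed genes, the GDNF fit recovered 38.5% of them with 1 false call. Both gut fits together recovered 72% (untreated) and 72.5% (treated) with 40 and 61 false calls. The changes set for the gut fits were larger than those for the GDNF fit, so these rates of recovery cannot be compared. Genes and lists were chosen with earlier results of these data known. Every listed gene is named, and of the pathway lists up to 3 genes that passed with 1 sign in all 9 guts. Promoters are from RefSeq (GRCm38.p6). The number of arrays limits the precision. Brightness is not kept in the scores, so no filter on dim probe sets was made.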

Additional observations from a re-analysis of the deposited data

Results flagged for a closer look

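In each of 144 groups of 4 to 9 values, the highest and lowest were tested for standing apart by the ratio of the gap to the range (Dixon's 95% limit), which chance exceeds in about 1 of 20 groups. It was exceeded in 19. No explanation was weighed for any of them.

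Gut 1 stood apart in 4 of the differences between GDNF-treated and untreated wells. It was at 2.44 for Sesn1, 0.65 for Trp53inp1, 1.87 for Zmat3 and 1.18 for Pmaip1, where the nearest other gut was at 0.05, -0.90, -0.01 and -0.92.

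The GDNF-treated array of gut 2 in batch 2 stood apart for Rrm2b, at -1.28 against 0.58 to 0.73 in the other 3. The untreated array of gut 3 in batch 2 stood apart in 6 genes. It was at -0.76 for Cdkn1a, 0.35 for Tnfrsf10b, -1.60 for Zmat3, -2.26 for Ei24, -1.04 for Phlda3 and -1.31 for Mcl1, in each case the lowest of 4 arrays, and the nearest other array was at 1.15, 1.03, 0.64, 0.58, 1.05 and 0.54. The untreated array of gut 9 in batch 2 stood apart for Polk, at 1.21, and for Bcl2l1, at -0.73, where the nearest others were at 0.43 and -0.01.

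Among the 8 whole guts, replicate 4 stood apart in 4 genes, at -1.30 for Cdkn1a, 1.12 for Perp, 0.84 for Pmaip1 and 1.26 for Casp8. Replicate 6 stood apart for Ddit4, at -0.32, and replicate 2 for Bik, at -0.88. The nearest other whole gut was at -1.18 for Cdkn1a, 1.52 for Perp, 1.05 for Pmaip1, 1.35 for Casp8, -0.78 for Ddit4 and -1.15 for Bik.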

How the results depend on the processing

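With GDNF, the counts of 21 genes lower and 4 higher stayed within 20 to 24 and 3 to 5 when each gut was left out in turn, and at 20 and 3 with no replicate block, that is without pairing the wells by gut. Batch 2 alone gave 0 and 0. Plk2 turned to 0.10 in batch 1 and 0.01 with all arrays in 1 fit, Zmat3 to 0.17 and Ei24 to 0.51 in batch 2. Casp9 turned to 0.17 in batch 1, 0.02 with no replicate block, 0.02 without the batch 2 array of untreated gut 3, 0.16 with the median of probe sets, 0.27 with the most reproducible probe set and 0.02 with all arrays in 1 fit. With 1 gut left out, Plk2 ran from -0.30 to 0.03, Bid from 0.00 to 0.25 and Casp9 from -0.10 to 0.07. None of these 5 genes had passed the test.

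Against whole gut, array weights, alone or with the common spread, gave 3 lower for untreated ENCCs, and 7 higher and 6 lower for treated ENCCs, where the common spread gave 6, 12 and 12. With 1 array left out, the common spread gave 11 to 13 higher and 12 to 13 lower for treated ENCCs and 19 to 22 higher and 6 to 7 lower for untreated ENCCs. With both fits these were 5 to 6 and 4 to 7 for treated ENCCs, and 9 to 15 and 0 to 2 for untreated ENCCs. With the ENCC RNAs of both batches, Sesn1 turned to 0.19, Fas to 0.13, Ei24 to -0.40 (adjusted p = 0.0284) and Mcl1 to -0.23 in treated ENCCs, and Plk3 to -0.02, Ei24 to 0.35 and Pmaip1 to -0.17 in untreated ENCCs. Bad turned to 0.10 in untreated ENCCs with the most reproducible probe set. With 1 array left out, the ranges that crossed 0 were -0.61 to 0.12 for Sesn1, -0.21 to 0.05 for Ddit4 and -0.31 to 0.20 for Fas in treated ENCCs. In untreated ENCCs they were -0.07 to 0.31 for Plk3, -0.59 to 0.37 for Ei24 (0.37 without gut 3, adjusted p = 0.00298), -0.46 to 0.60 for Pmaip1 and -0.32 to 0.44 for Bad. The causes were not tested.

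Of the values for single genes, 538 of 612 kept their direction and their side of the threshold with GDNF, 537 of 576 for untreated ENCCs and 523 of 576 for treated ENCCs against whole gut. Scores keep neither brightness nor fold, and 4 ENCC arrays a group limit the comparisons with whole gut. For fits of a single batch or with samples left out, shares over all genes were not counted.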
